A study of Sus scrofa with 2 samples.

Results

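The 6 genes described here, MYOC, TMEFF2, NT5E, SPON1, CPZ and CTHRC1, encode secreted or surface proteins and were chosen by their levels in these same cells, as genes that mark subsets of dermal fibroblasts in pig skin. They are 6 of the 31908 genes listed for both libraries, and each was matched by its symbol. They were examined in collagen-rich cells, defined as cells in which COL1A1, COL1A2 and COL3A1 together hold at least 2% of the unique molecular identifiers (UMIs, the tags that count each captured transcript once). This rule took 914 of 2775 cells in the fresh library and 1347 of 4223 cells in the cryopreserved library. Because levels and co-expression in these cells chose the genes, every level, pairing and contrast below is a description of 2 libraries, and no test was run.

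Dermal fibroblasts make the collagen matrix of skin and differ with depth. Cells of the upper (papillary) dermis respond to Wnt signals from the epidermis, cells of the deep (reticular) dermis make thick collagen bundles, and others lie around hair follicles or vessels and release chemokines. MYOC is myocilin, a secreted olfactomedin-domain glycoprotein known from the drainage tissue of the eye, and TMEFF2 is a transmembrane protein with follistatin-like and EGF-like domains. NT5E (CD73) is the surface enzyme that turns extracellular AMP into adenosine, SPON1 (spondin 1) is a secreted matrix adhesion protein with thrombospondin repeats, CPZ is a secreted carboxypeptidase with a Frizzled-like cysteine-rich domain, and CTHRC1 is a secreted glycoprotein with a short collagen repeat.

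Dorsal skin of healthy male farm pigs was dissociated, and droplet-based single-cell RNA sequencing with a 10x Genomics 3′ kit gave 1 library from fresh cells with no treatment and 1 from cells frozen in 90% FBS + 10% DMSO. The extraction protocol attached to both samples describes freezing, but the title and treatment label mark the first as fresh. No source says whether 1 animal gave both libraries, so animal, preparation and freezing cannot be told apart. Within the maxima set by the study, collagen-rich cells had a median depth of 14320 UMIs when fresh and 10688 UMIs when cryopreserved, and the libraries shared 5 barcodes among the cells kept. All intervals below are exact 95% intervals that cover counting error only, not the spread between animals or preparations.

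The collagen-rich cells carried the general fibroblast markers. Decorin (DCN), a small proteoglycan bound to collagen fibres, stood at 5469 CPM (counts per 1000000, the UMIs of the gene scaled to the UMIs of the group and not scaled by gene length) in fresh collagen-rich cells and 206 CPM in the cells below the rule, and at 5246 and 165 CPM in the cryopreserved library. All 11 fibroblast markers found were higher in collagen-rich cells in both libraries. Of the 914 fresh cells, 901 lay in the 6 clusters that scored highest for those markers, 2 in clusters of other names and 11 in unnamed clusters, and of the 1347 cryopreserved cells 1325, 11 and 11 did. Summed markers of the other 14 cell types had a median of 0 CPM per cell, except the basal keratinocyte list (medians of 358 and 306 CPM, fresh and cryopreserved) and the dendritic list (101 and 119 CPM). Their part in the levels below was not tested. The alternative without marker-bearing cells, given below, was run only for the cryopreserved over fresh ratios. The collagen share is a range and not a cell type: 50 fresh and 69 cryopreserved cells lay at 1.5 to 2%, and 58 and 80 at 2 to 2.5%. Those 6 clusters also held 296 fresh and 230 cryopreserved cells below the cut.

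The genes lie on different chromosomes of the Sscrofa11.1 assembly. RefSeq places MYOC at chr9:114087370-114098765 on the minus strand, with 3 exons, TMEFF2 at chr15:96594901-96856848 on the minus strand, with 10 exons, and NT5E at chr1:54400786-54450743 on the plus strand, with 9 exons. SPON1 lies at chr2:44967982-45299677 on the minus strand, with 16 exons, CPZ at chr8:2620765-2642524 on the minus strand, with 11 exons, and CTHRC1 at chr4:33759541-33771625 on the minus strand, with 4 exons. RefSeq annotates LOC102167218 on the strand opposite TMEFF2 and LOC102157437 on the strand opposite NT5E, and whether the counting used strand is not given in the sources used here. The 250 bases before the annotated start are shown for MYOC and TMEFF2, the pair found together most often relative to expectation, and for NT5E, which was rarely found with either. They were read from the RefSeq genome and are printed 5′ to 3′ along the gene's own strand. Capitals mark matches on either strand to the letters TATAAA of a TATA box, CCAAT of a CAAT box, GGGCGG of a GC box or TGANTCA of an AP-1 site.
MYOC: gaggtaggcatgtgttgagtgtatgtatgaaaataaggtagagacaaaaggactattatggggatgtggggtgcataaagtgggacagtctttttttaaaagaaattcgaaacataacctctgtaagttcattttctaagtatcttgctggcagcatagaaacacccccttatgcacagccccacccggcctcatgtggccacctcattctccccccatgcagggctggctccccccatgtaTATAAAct
TMEFF2: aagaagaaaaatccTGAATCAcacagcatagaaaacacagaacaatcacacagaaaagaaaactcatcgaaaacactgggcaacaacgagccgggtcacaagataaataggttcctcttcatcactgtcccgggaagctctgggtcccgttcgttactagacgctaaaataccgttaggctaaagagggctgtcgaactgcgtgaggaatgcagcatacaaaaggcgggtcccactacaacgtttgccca
NT5E: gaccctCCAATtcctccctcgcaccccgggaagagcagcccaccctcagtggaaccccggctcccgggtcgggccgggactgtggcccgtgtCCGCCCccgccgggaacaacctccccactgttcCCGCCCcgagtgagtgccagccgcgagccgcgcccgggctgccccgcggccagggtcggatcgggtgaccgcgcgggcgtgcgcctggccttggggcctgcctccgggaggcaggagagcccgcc
These windows are chr9:114098766-114099015, chr15:96856849-96857098 and chr1:54400536-54400785. The MYOC window was 45.6% G and C with 2 CpG, and its only capitalised match was a TATA box, 8 bases before the annotated start. The TMEFF2 window was 46.8% G and C with 12 CpG and held 1 AP-1 match. The NT5E window was 76.8% G and C with 28 CpG and held 1 CAAT-box and 2 GC-box matches. The windows of CPZ (75.2% G and C) and CTHRC1 (71.6%) each held 2 GC-box matches and no TATA box, whereas that of SPON1 (46%) held 1 TATA-box match and no GC box. Over 19556 windows of the same length before protein-coding genes, the median was 57.6% G and C and 12 CpG, and 9.77% held a TATA box, 31.9% a CAAT box, 45.9% a GC box and 5.27% an AP-1 site. A match describes letters in a window and not a bound site.

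MYOC and TMEFF2 marked a minority of collagen-rich cells, and MYOC did so with many transcripts per cell. MYOC stood at 247 CPM (239 to 256) in fresh and 321 CPM (312 to 330.2) in cryopreserved collagen-rich cells. The level moved with the cut: with a 5% cut MYOC stood at 107 and 155 CPM, and with all barcodes at 162 CPM in the fresh library. A MYOC UMI was found in 170 of 914 fresh cells (18.6%) and 308 of 1347 cryopreserved cells (22.9%), and these cells held on average 19.3 and 15.6 MYOC UMIs, with up to 130 and 123 in a single cell. TMEFF2 stood at 97.9 CPM (92.6 to 103) in fresh and 129 CPM (124 to 135) in cryopreserved cells. It was found in more cells than MYOC in both libraries (219 fresh, 416 cryopreserved) but with a lower mean of 5.92 and 4.65 UMIs in each. To compare shares at equal depth, every cell was thinned at random to 3000 UMIs, which left 893 fresh and 1295 cryopreserved collagen-rich cells and dropped 21 and 52 shallower ones. MYOC was then found in 13.998% (11.8 to 16.4%) of fresh and 17.99% (15.9 to 20.2%) of cryopreserved cells, and TMEFF2 in 13.9% (11.7 to 16.3%) and 17.9% (15.9 to 20.1%). In keratinocyte-like cells, a lineage that should lack both, the thinned shares were 0 and 0.0975% for MYOC and 0.193 and 0.195% for TMEFF2, where the median cell had 14869 and 9693 UMIs before it was thinned.

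CPZ had the most UMIs of the 6 genes in both libraries, and NT5E was at the low end of the order. CPZ stood at 773 CPM (758 to 788) in fresh and 819 CPM (804 to 833) in cryopreserved collagen-rich cells and was found in 58.9% and 59.7% of thinned cells. SPON1 stood at 230.3 CPM (222 to 239) and 154 CPM (148 to 161), in 34.2% and 28.1% of thinned cells. NT5E, the adenosine-producing enzyme, stood at 91.2 CPM (86.2 to 96.5) and 80.1 CPM (75.6 to 84.7), in 17.8% and 16.8%. NT5E was spread thinly, with a mean of 3.16 and 2.58 UMIs in the unthinned cells that had any. CTHRC1 stood at 105 CPM (99.1 to 110.2) and 124 CPM (119 to 130.2), in 18.03% and 19.4%. Its interval overlapped that of TMEFF2 in both libraries, so these neighbours in the order of levels were not told apart. The intervals of NT5E and TMEFF2 also overlapped in the fresh library. With a 5% cut TMEFF2 lay below NT5E in both libraries (66.6 and 86.5 CPM beside 116 and 99.8 CPM), and with all barcodes it did so in the fresh library (74.3 beside 91.4 CPM). In thinned keratinocyte-like cells the shares were 0 and 0.682% for CPZ, 0 and 0.487% for NT5E and 0.579 and 0% for CTHRC1, but 6.56 and 6.92% for SPON1.

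The genes divided along the collagen share of a cell. MYOC and TMEFF2 were high in cells of low collagen share and nearly missing from the cells of highest share, CPZ, NT5E and CTHRC1 were highest in the latter, and SPON1 lay between. MYOC stood at 757 and 841 CPM (fresh and cryopreserved) in cells with 2.5 to 5% collagen UMIs and at 0.348 and 0.261 CPM in cells above 20% (141 and 267 cells), the level of a single UMI. TMEFF2 stood at 202 and 271 CPM in the lower bin and 0.348 and 3.65 CPM in the upper. CPZ went the other way, from 179 and 140.1 CPM to 1848 and 1918 CPM. CTHRC1 went from 24.2 and 9.78 CPM to 220.4 and 281 CPM, and NT5E from 16.4 and 17.5 CPM to 200.2 and 185 CPM. SPON1 reached its highest level among collagen-rich cells at 10 to 15% in the fresh library (388 CPM) and at 15 to 20% in the cryopreserved library (280.1 CPM). Across collagen-rich cells, Pearson's r of log levels with COL1A1 was 0.750 and 0.782 for CPZ and -0.345 and -0.441 for MYOC, over 914 fresh and 1347 cryopreserved cells. The cells of each correlation share a library, its depth and a scaling to each cell's total, and COL1A1 is part of the rule that chose them.

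The cut passed through the range where TMEFF2 and MYOC were high. In cells at 1.5 to 2% collagen, just below the cut, TMEFF2 stood at 445 and 224 CPM and MYOC at 246 and 500.2 CPM, and at 2 to 2.5% they stood at 152 and 255 CPM and 308 and 924 CPM. SPON1 stood at 136 and 108 CPM below and 230.1 and 87.5 CPM above the cut, CPZ at 67.2 and 84.7 CPM below and 118 and 63.8 CPM above, NT5E at 13.4 and 3.94 CPM below and 19.9 and 11.9 CPM above, and CTHRC1 at 11.5 and 15.8 CPM below and 8.28 and 10.4 CPM above. Cells of the 6 clusters with the highest fibroblast marker scores that lay below the cut held 38.5% of all fresh TMEFF2 UMIs and 18.3% of the cryopreserved ones. They held 13.7% and 5.47% of SPON1 UMIs, 8.06% and 11.7% of MYOC UMIs, and 0.956% and 0.613% of CPZ UMIs. For NT5E the shares were 1.22% and 0.297%, and for CTHRC1 1.31% and 0.839%. The rule thus left out a larger part of TMEFF2 than of any other member.

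**Figure D1:**
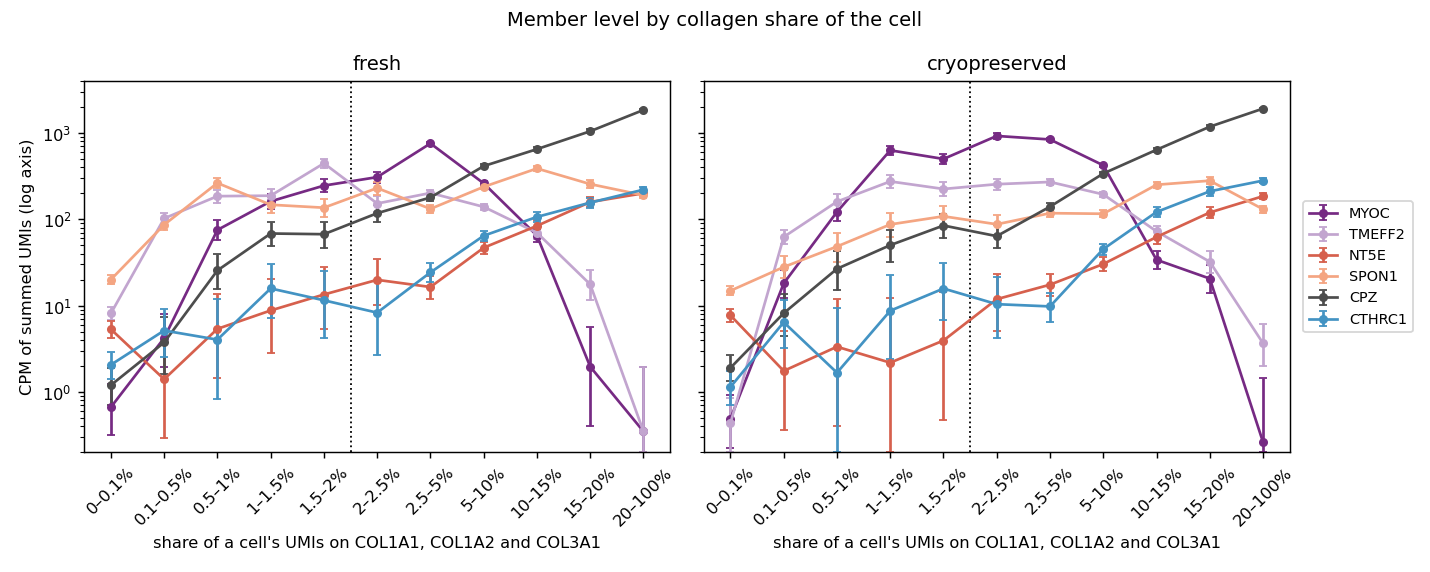
Level of each member in CPM of summed UMIs (log axis) against the share of a cell's UMIs on COL1A1, COL1A2 and COL3A1, for all kept fresh cells (left) and cryopreserved cells (right), with exact 95% Poisson bars and the 2% cut dotted. MYOC and TMEFF2 drop to 0.348 and 0.261 and to 0.348 and 3.65 CPM in the highest bin, whereas CPZ stands at 1848 and 1918 CPM there.

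Within single cells, MYOC and TMEFF2 were found together and both were rarely found with NT5E or CTHRC1. For each of the 15 pairs, the number of thinned collagen-rich cells with a UMI of both genes was set beside the number expected from the share of each gene alone. MYOC and TMEFF2 shared 64 fresh cells where 17.4 were expected (3.69 times) and 114 cryopreserved cells where 41.7 were expected (2.73 times). TMEFF2 was found in 51.2% (42.1 to 60.2%) of fresh cells with MYOC and 7.81% of those without, and in 48.9% and 11.11% of cryopreserved cells. About as many MYOC cells lacked a TMEFF2 UMI at this depth as had one. MYOC and CTHRC1 shared 3 fresh cells where 22.5 were expected and 9 cryopreserved cells where 45.2 were expected. NT5E was found in 2.42% (0.502 to 6.91%) of fresh cells with TMEFF2 and 20.3% of those without, and in 6.03% and 19.1% of cryopreserved cells.

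CPZ was found above expectation with both NT5E and CTHRC1. CPZ and CTHRC1 shared 138 fresh cells where 94.8 were expected and 219 cryopreserved cells where 149.8 were expected. CTHRC1 was found in 26.2% (22.5 to 30.2%) of fresh cells with CPZ and 6.27% of those without. The ratio to expectation was 1.40 and 1.47 (fresh and cryopreserved) for NT5E with CPZ, 1.36 and 1.28 for NT5E with CTHRC1 and 1.25 and 1.64 for NT5E with SPON1. SPON1 and CTHRC1 were found together less than expected, at 0.455 and 0.581 times expectation. The size of this shortfall depended on processing: without thinning the ratios were 0.841 and 0.852, and with a 1% cut the fresh ratio was 0.729. The excess of NT5E with CTHRC1 was not stable: thinned to 1000 UMIs the fresh ratio was 0.658, and with a 5% cut the cryopreserved ratio was 1.01. At 3000 UMIs and the 2% cut, 5 pairs lay above expectation and 9 below in both libraries, and SPON1 with CPZ lay at 0.969 and 1.04. Before thinning, cells with CTHRC1 were deeper (median 17856 UMIs with and 12626 without in the fresh library), which is why the thinned cells are given.

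**Figure D2:**
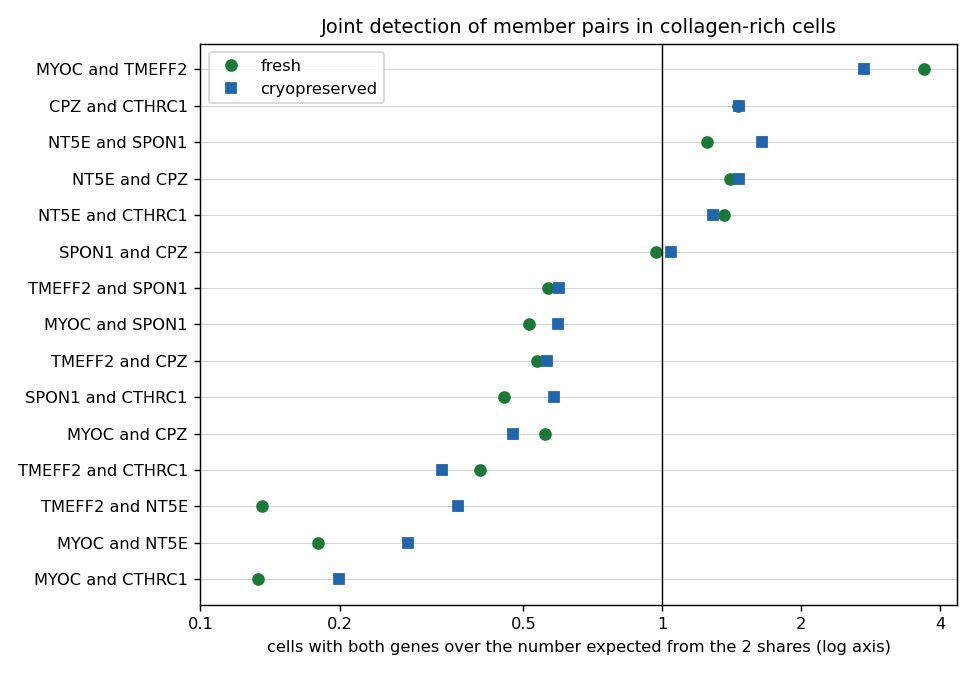
Number of collagen-rich cells (thinned to 3000 UMIs) with both genes of a pair over the number expected from the 2 shares (log axis), for the 15 pairs, in fresh cells (circles) and cryopreserved cells (squares), with a line at 1. MYOC with TMEFF2 lies farthest above the line, at 3.69 and 2.73, and every pair of MYOC or TMEFF2 with another member lies below it. The highest possible ratio is lower for pairs with a common gene such as CPZ, so the order is not an order of association.

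Most cells held few of the 6 genes at this depth. None was found in 11.9% (9.82 to 14.2%) of fresh and 12.7% (10.9 to 14.6%) of cryopreserved thinned cells, a single one in 36.7% and 34.3%, and 4 in 1.90% and 1.93%. Cells with 5 or with 6 of them numbered 0 of 893 and 0 of 1295, with exact 95% upper limits of 0.412% and 0.284%. The floors (3 cells of the total) were 0.336% and 0.232%. Both the limits and the floors concern cells with a UMI at the thinned depth, not cells that express the genes. MYOC or TMEFF2 with none of the other 4 was found in 11.09% (9.10 to 13.3%) of fresh and 13.98% (12.1 to 16.0%) of cryopreserved cells. CTHRC1 with none of the other 5 was found in 1.34% and 1.54%, whereas CTHRC1 with NT5E, SPON1 or CPZ and without MYOC or TMEFF2 was found in 15.5% and 16.2%. NT5E, SPON1 and CPZ were found all together in 6.05% and 6.41% of cells.

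Cells were also clustered with these 6 genes left out of the clustering features. Genes correlated with the 6 stayed in, and co-expression in these cells chose the 6, so the clusters are not separate support for the division. Of the resulting clusters, 6 (0, 1, 4, 5, 6 and 18) scored highest for general fibroblast markers, and the first 5 are called fibroblast-like. The 10 leading genes of each of the 6 held 0 fibroblast markers, so the name rests on the marker scores. Cluster 18 is given by number, because its 10 leading genes held 1 marker of another list, the cartilage proteoglycan gene ACAN. For that reason single clusters are set beside each other between libraries, and ratios over the 6 clusters together are given only as a processing alternative. Cluster 0 held MYOC at 889 and 1199.7 CPM (311 fresh and 433 cryopreserved cells) and TMEFF2 at 459 and 379 CPM, and FCN2 and the epithelial growth factor FGF10 were among its leading genes. Cluster 6 held both at lower levels, MYOC at 239.9 and 211 CPM and TMEFF2 at 227 and 233 CPM. In cluster 1, where the Wnt inhibitor WIF1 was among the leading genes, MYOC stood at 0.443 and 0.581 CPM while NT5E (199.9 and 248 CPM), SPON1 (541 and 386 CPM) and CPZ (1246 and 1664 CPM) were high. Cluster 4, with ASPN and PI16 among its leading genes, held the highest CTHRC1 (265 and 359.9 CPM) and high CPZ (990.0 and 1278 CPM) but little SPON1 (16.3 and 26.0 CPM). SPON1 was also high in cluster 5 (266 and 263 CPM), led by the chemokine CCL19, and in cluster 18 (433 and 327 CPM), led by ITGA8 and ACAN. CTHRC1 stood at 7.62 and 4.52 CPM in cluster 5 and 5.35 and 22.5 CPM in cluster 18. Other genes of the same cells made the clusters, so these levels describe the clusters and test nothing.

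**Figure D3:**
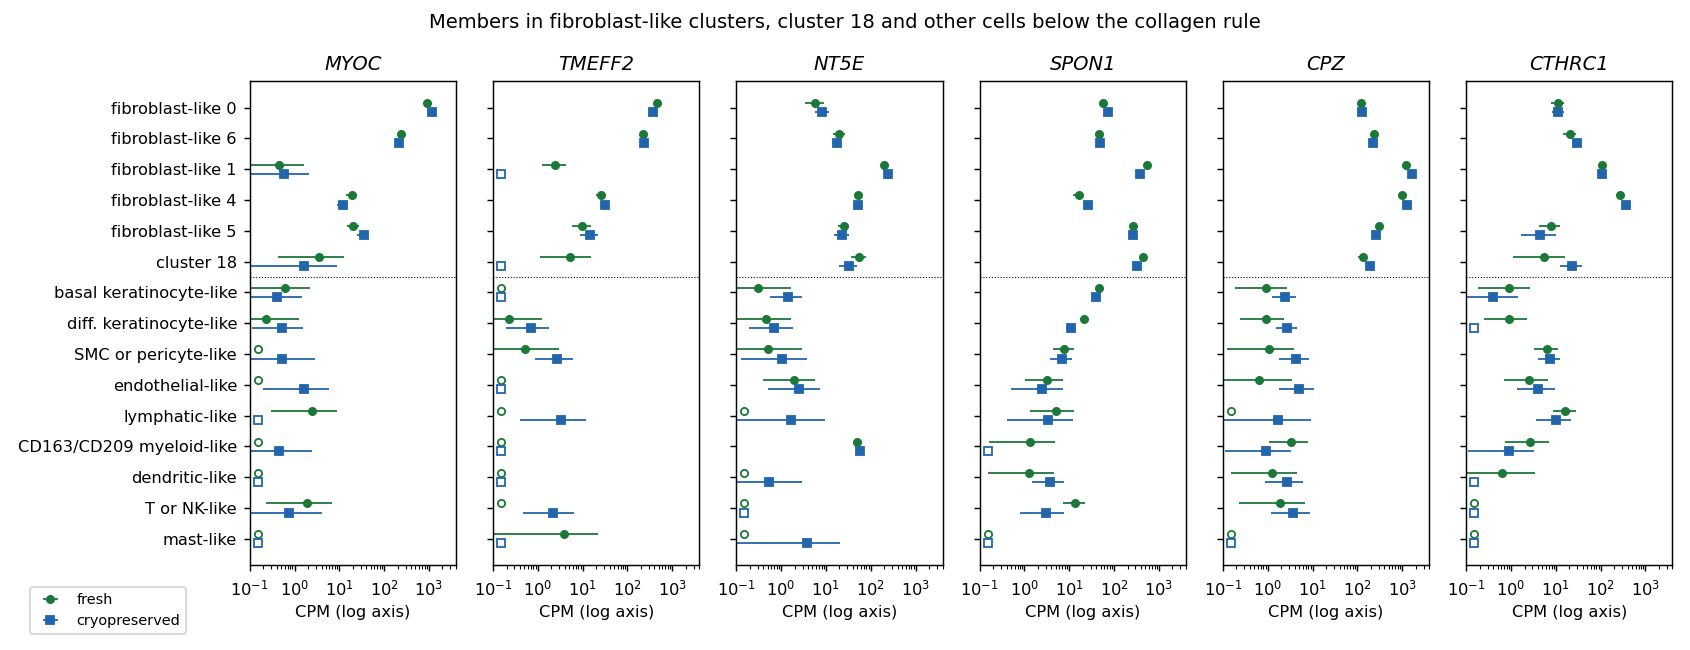
CPM (log axis) of each member in all cells of the 5 fibroblast-like clusters and cluster 18 (above the dotted line) and in cells of other lineages below the collagen cut (under it), fresh in circles and cryopreserved in squares, with exact 95% Poisson intervals and open symbols at the left edge for groups with 0 UMIs. NT5E stands at 50.5 and 57.4 CPM in CD163/CD209 myeloid-like cells and SPON1 at 47.3 and 39.8 CPM in basal keratinocyte-like cells.

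Within clusters 0 and 6, MYOC and TMEFF2 were found together closer to expectation than over all collagen-rich cells. The highest possible ratio is lower where a gene is common, as MYOC was in cluster 0 and CPZ in clusters 1 and 4. A ratio nearer to 1 within a cluster therefore does not by itself show a weaker association. TMEFF2 was found in 54.8% of fresh thinned collagen-rich cells of cluster 0 with MYOC and 41.4% of those without. In cryopreserved cells the shares were 54.3% and 38.7%. In thinned collagen-rich cells of cluster 0, MYOC and TMEFF2 shared 46 fresh cells where 40.9 were expected (1.12 times) and 95 cryopreserved cells where 83.7 were expected (1.14 times). In cluster 6 the ratios were 1.40 and 1.56, from 10 and 25 shared cells. In cluster 1, NT5E and SPON1 lay at 1.05 and 1.01 times expectation and CPZ and CTHRC1 at 1.32 and 1.12. SPON1 and CTHRC1 stayed below expectation within cluster 1, at 0.638 (18 cells where 28.2 were expected) and 0.745 (22 where 29.5 were expected). SPON1 and CPZ lay at 0.913 and 0.933 in cluster 1, from 118 and 141 shared cells, farther from expectation than the 0.969 and 1.04 of all collagen-rich cells. In cluster 4, CPZ and CTHRC1 lay at 1.03 in both libraries. SPON1 and CTHRC1 lay there at 0.833 (3 cells where 3.6 were expected) in fresh and 1.03 (10 where 9.73 were expected) in cryopreserved cells.

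The genes whose levels were most like each member's were also examined. Among 9111 genes found in at least 5% of collagen-rich cells of both libraries, genes were ordered by the smaller of the Pearson r values of the libraries, over 914 fresh and 1347 cryopreserved cells. MYOC was most like GSN, the actin-severing protein gelsolin (r of 0.559 and 0.532), then TMEFF2 (0.515 and 0.495) and ENSSSCG00000035293 (0.524 and 0.482). TMEFF2 was most like ENSSSCG00000035293 (0.547 and 0.562), GSN (0.507 and 0.530) and TMEM100 (0.502 and 0.550), so GSN and the unnamed gene stood high for both. NT5E was most like COL1A1 (0.514 and 0.483), CPZ (0.519 and 0.463) and COL1A2 (0.505 and 0.459). CPZ was most like COL1A1, AEBP1 (0.658 and 0.665), a secreted carboxypeptidase-like protein of collagen matrix, and COL1A2 (0.651 and 0.713). CTHRC1 was most like TGFBI, a matrix protein induced by TGF-beta (0.581 and 0.589), COL1A1 (0.530 and 0.522) and CPZ (0.544 and 0.510). SPON1 stood apart from these, with F13A1, a transglutaminase that cross-links fibrin (0.649 and 0.575), TANC1 (0.501 and 0.488) and S100A4 (0.493 and 0.433) most like it. Between 1.58 and 3.38% of the 9111 genes had r above 0.2 with a given member in both libraries.

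Genes of 12 lists (dermal layers, hair follicle, inflammation, matrix, signalling and the members' own families) were compared between collagen-rich cells with a UMI of a member and cells without. The cells were not thinned here, and a cell without a UMI may have missed the gene at its depth. Fresh medians with and without were 15778 and 10205 UMIs for CPZ, 17257 and 12459 for NT5E and 13951.5 and 14496 for MYOC. A gene was called when its CPM differed at least 2-fold the same way in both libraries, among the 9791 genes with at least 50 UMIs in each library. Median collagen shares were 15.3% in fresh cells with CTHRC1 and 5.83% in those without, and 4.74% and 9.30% for MYOC. CPM is a share of the total, and the median log2 difference over all genes tested was -0.24 and -0.24 (fresh and cryopreserved) for CTHRC1, -0.20 and -0.19 for CPZ and -0.20 and -0.17 for NT5E, and between -0.03 and 0.05 for the others. The contrasts use overlapping cells and are not independent of each other.

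Beside MYOC, inflammatory genes were higher and upper-dermis genes lower. Of the 11 inflammatory fibroblast genes tested, 7 were called higher and 0 lower, beside 3.44% and 4.08% of all genes tested, with a median log2 difference of 1.54 and 1.41. The cytokine gene IL6 stood at 1081 and 101 CPM in fresh cells with and without MYOC and at 1011 and 132 CPM in cryopreserved cells. CXCL2, a neutrophil attractant, stood at 5044 and 952 CPM and at 7273 and 1575 CPM. CCL2, a monocyte attractant, was called higher as well (5203 and 1790.5 CPM fresh, 9932 and 2821 CPM cryopreserved, with and without), and so was FGF10 (180.4 and 26.8 CPM fresh, 219 and 31.6 CPM cryopreserved). Of the 9 upper-dermis genes tested, 7 were called lower and 0 higher, among them the Wnt targets AXIN2, APCDD1 and NKD1. WIF1 stood at 3.48 and 123 CPM in fresh cells with and without MYOC and at 2.34 and 103 CPM in cryopreserved cells. Of 11 hair follicle genes, 5 were called lower, such as COCH (1.30 and 75.3 CPM fresh, 1.76 and 53.3 CPM cryopreserved).

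Beside TMEFF2 the same lists were called in the same directions. Of the inflammatory genes, 6 of 11 were called higher, beside 4.35% of all genes tested, with IL6 at 823 and 90.8 CPM in fresh and 832 and 82.7 CPM in cryopreserved cells with and without TMEFF2. Of the upper-dermis genes, 8 of 9 were called lower, beside 4.33% of all genes. ROR2, a receptor for noncanonical Wnt ligands (368 and 117 CPM fresh, 259 and 111 CPM cryopreserved), was called higher. ADORA2B, a receptor for the adenosine that NT5E makes, was called higher beside MYOC (40.4 and 6.76 CPM fresh, 45.7 and 9.78 CPM cryopreserved) and TMEFF2 (39.3 and 3.90 CPM fresh, 38.1 and 7.91 CPM cryopreserved). It was the only 1 of 8 adenosine genes called beside NT5E, on the lower side (2.70 and 22.6 CPM fresh, 6.71 and 25.4 CPM cryopreserved). The lower call was not particular to NT5E, as ADORA2B was called lower beside CPZ too. Of the same list, DPP4 was called higher beside SPON1, and ENTPD1 and DPP4 were called lower beside CTHRC1. Markers of other cell types moved with MYOC and TMEFF2. PROX1, a lymphatic marker, was called higher beside MYOC (log2 differences of 1.08 and 1.96) and TMEFF2 (2.18 and 1.42), and so was LPL, a lipoprotein lipase that marks adipocytes (2.08 and 1.62 beside MYOC, 2.46 and 2.19 beside TMEFF2). Called lower were KRT5 and 2 of 4 dividing-cell markers beside MYOC, CD86 and 1 of 4 dividing-cell markers beside TMEFF2, and ACAN beside both. Their part in the calls was not tested.

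SPON1 and NT5E, which were found together, differed in part in what stood beside them. Of the upper-dermis genes, 8 of 9 were called higher beside SPON1, where 1.9% of all genes were called higher and 0.725% lower. WIF1 stood at 174 and 11.9 CPM in fresh and 150.5 and 18.7 CPM in cryopreserved cells with and without SPON1. RSPO1, which amplifies Wnt signals (20.6 and 2.39 CPM fresh, 20.4 and 2.37 CPM cryopreserved), and GREM1, a BMP inhibitor (142 and 32.4 CPM fresh, 94.2 and 28.9 CPM cryopreserved), were called higher. SFRP4, a secreted Frizzled-related protein, was called lower (79.6 and 551 CPM fresh, 169.6 and 494 CPM cryopreserved). Of the inflammatory genes, 0 were called higher and 0 lower beside SPON1, while 9 of 11 were called lower beside NT5E, where 1.16% of all genes were called higher and 4.25% lower. CCL19 (74.5 and 353 CPM fresh, 51.0 and 258 CPM cryopreserved) and CXCL2 (544 and 2795 CPM fresh, 1323 and 3902 CPM cryopreserved) were among them. WIF1 (183 and 19.6 CPM fresh, 178 and 14.98 CPM cryopreserved) and RSPO1 were the 2 upper-dermis genes called higher beside NT5E. Among markers of other cell types, 3 of 4 smooth muscle or pericyte markers were called lower beside NT5E (list medians of -1.23 and -1.56 on the log2 scale), as were the endothelial marker PECAM1, the lymphatic marker PROX1 (-1.60 and -1.61), the adipocyte marker LPL (-1.13 and -1.39) and TNMD, while the dividing-cell marker CDK1 was called higher. Beside SPON1, KRT5, CD86 and SOX9 were called higher. The part of these markers in the calls was not tested.

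Some genes of the collagen matrix were higher beside CPZ and fewer beside CTHRC1. Of the matrix and TGF-beta response genes, 4 of 14 were called higher beside CPZ, where 1.17% of all genes were called higher and 1.91% lower. Among them were LOX, the collagen cross-linking oxidase (345 and 115 CPM fresh, 293 and 116 CPM cryopreserved), COL12A1 and TGFBI. Beside CTHRC1, TGFBI (219 and 37.4 CPM fresh, 264 and 45.9 CPM cryopreserved) was called higher, where 1.01% of all genes were called higher and 5.73% lower. Over the matrix list, 2 of 14 genes were called higher beside CTHRC1 and 1 lower (the fibrillar collagen gene COL11A1), with median log2 differences of 0.12 and 0.17. PI16, a marker of fascia and adventitial fibroblasts (739 and 270.3 CPM fresh, 817 and 255 CPM cryopreserved), SEMA3C (366 and 121 CPM fresh, 367 and 112 CPM cryopreserved) and ASPN, which encodes the small proteoglycan asporin (259 and 87.0 CPM fresh, 323 and 84.8 CPM cryopreserved), were also called higher beside CTHRC1. SEMA3C and ASPN were called higher beside CPZ too, while WIF1 was called higher beside CPZ (114 and 35.7 CPM fresh, 94.5 and 16.9 CPM cryopreserved) and not called beside CTHRC1. ASPN was the only 1 of 11 hair follicle genes called higher beside either, with 3 called lower beside CPZ and 4 beside CTHRC1. Beside CPZ, 1 of 9 upper-dermis genes was called higher and 2 lower, and 0 and 4 of 11 inflammatory genes. Of the inflammatory genes 9 of 11, and of the upper-dermis genes 7 of 9, were called lower beside CTHRC1, such as CXCL12 (166 and 451 CPM fresh, 218 and 681 CPM cryopreserved). COL23A1 was called lower beside CTHRC1 (2.20 and 90.3 CPM fresh, 1.11 and 21.0 CPM cryopreserved) and higher beside SPON1 (87.8 and 4.44 CPM fresh, 22.8 and 3.86 CPM cryopreserved). Markers of other cell types also moved with CTHRC1: 3 of 4 smooth muscle or pericyte markers (ACTA2, TAGLN and NOTCH3) were called lower, with list medians of -2.13 and -2.28 on the log2 scale, as were 4 of 4 dividing-cell markers (-2.15 and -2.08), 2 of 3 chondrocyte or tendon markers and the dendritic marker CD86. Beside CPZ, TAGLN and SOX9 were called lower. Their part in these calls was not tested.

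The remaining lists hold the members' own families and the signalling pathways, and their counts stand beside the shares of all genes given above for each member, which ranged from 1.01 to 4.35% higher and from 0.725 to 5.73% lower. Of 6 olfactomedin genes, OLFML2A was called higher and OLFML2B lower beside MYOC and TMEFF2, with the opposite calls beside NT5E, CPZ and CTHRC1. Of 7 metallocarboxypeptidase genes, AEBP1 was called higher beside CPZ (798 and 282 CPM fresh, 922 and 281 CPM cryopreserved) and CTHRC1 and lower beside MYOC and TMEFF2. CPXM2 of the same list was called higher beside SPON1 and lower beside MYOC and TMEFF2, and 0 genes of it were called beside NT5E. Of 10 spondin and thrombospondin repeat genes, THBS2 was called higher beside SPON1 (346 and 143 CPM fresh, 360.1 and 151 CPM cryopreserved) and NT5E and lower beside MYOC and TMEFF2. Over that list, the genes called higher and lower numbered 1 and 2 beside MYOC, 1 and 2 beside TMEFF2, 2 and 3 beside NT5E, 2 and 0 beside SPON1, 0 and 2 beside CPZ and 0 and 4 beside CTHRC1. Of 19 Wnt genes, those called higher and lower numbered 1 and 4 beside MYOC, 2 and 4 beside TMEFF2, 3 and 1 beside NT5E, 3 and 3 beside SPON1, 1 and 3 beside CPZ and 1 and 7 beside CTHRC1. Of 7 deep-dermis genes, 2 were called higher and 1 lower beside CTHRC1, and at most 1 either way beside each other member. Of 11 hair follicle genes, 4 were called higher and 0 lower beside SPON1. Of 11 activin and BMP genes, those called higher and lower numbered 1 and 2 beside MYOC, 2 and 2 beside TMEFF2 and 1 and 1 beside NT5E. They numbered 2 and 1 beside SPON1, 0 and 0 beside CPZ and 0 and 2 beside CTHRC1. Among 9 FGF and PDGF genes, the counts were 1 and 1 beside MYOC, 2 and 1 beside TMEFF2 and 0 and 1 beside NT5E. They were 0 and 0 beside SPON1, 0 and 1 beside CPZ and 0 and 3 (FGF10, FGFR2 and PDGFRA) beside CTHRC1. PDGFRA was also the only 1 of 11 general fibroblast markers called beside CTHRC1.

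**Figure D4:**
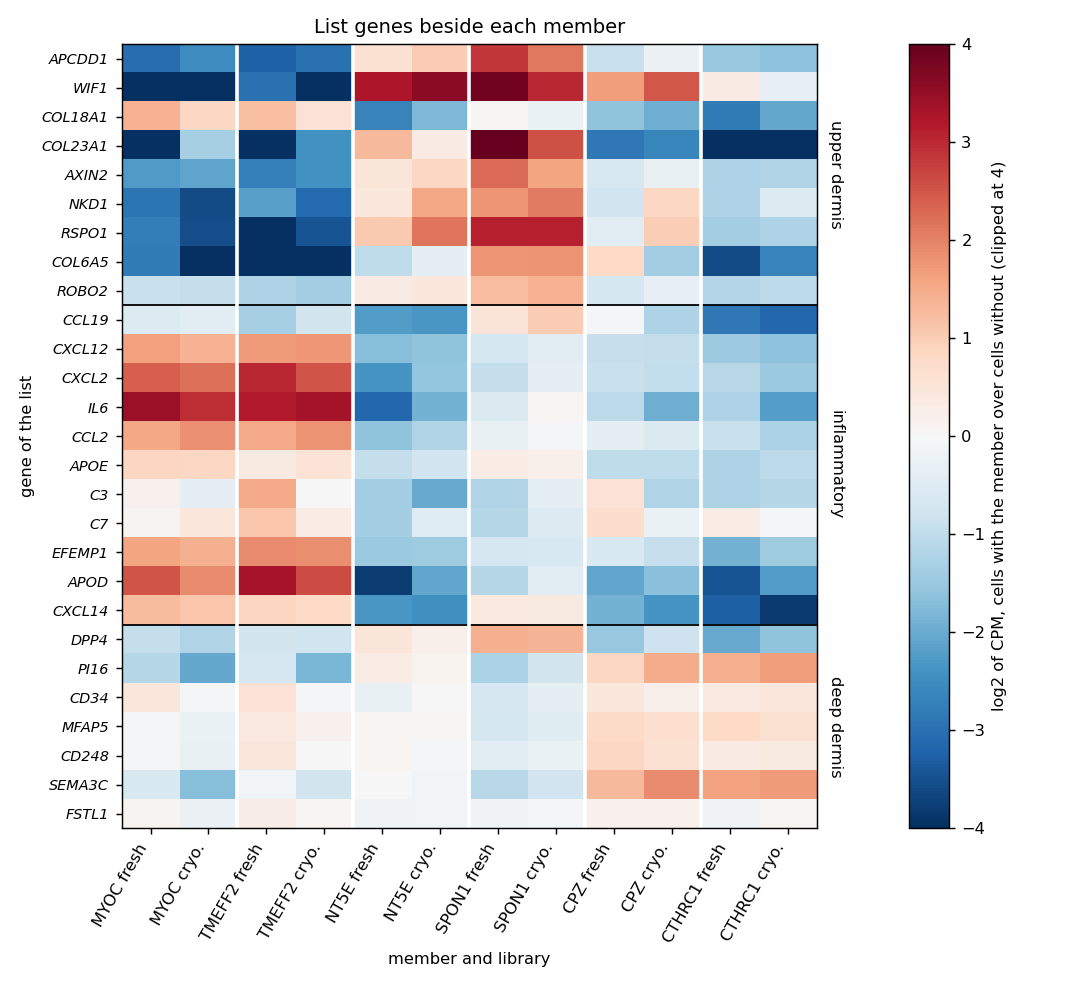
Difference in CPM (log2, clipped at 4) between collagen-rich cells with and without a UMI of each member, for tested genes of the upper-dermis, inflammatory and deep-dermis lists, in the fresh and cryopreserved library, with red for higher in cells with the member. MYOC has 7 of 11 inflammatory genes called higher and 7 of 9 upper-dermis genes called lower, and SPON1 has 8 of the latter called higher.

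In the other named lineages, MYOC and TMEFF2 had the lowest levels of the members in both libraries, while NT5E and SPON1 each had a further site. Cells below the cut in the clusters with the highest fibroblast marker scores were not counted among these lineages. They held 38.5% of fresh and 18.3% of cryopreserved TMEFF2 UMIs, and whether all of them are fibroblasts was not tested. A cluster of low collagen share with a fibroblast marker score of -1.04 is described below. Over all cells of the other named lineages below the collagen cut (1555 fresh, 2619 cryopreserved), MYOC stood at 0.426 and 0.498 CPM, TMEFF2 at 0.182 and 0.697 CPM, CPZ at 1.16 and 2.69 CPM and CTHRC1 at 2.49 and 1.44 CPM. NT5E stood at 4.99 and 7.27 CPM and SPON1 at 17.8 and 14.4 CPM over the same cells. Pooled in this way, levels were low beside those of all collagen-rich cells for each gene. This did not hold beside every fibroblast-like cluster. NT5E stood at 199.9 and 248 CPM in cluster 1 but at 5.68 and 8.24 CPM in cluster 0, below its level in the myeloid-like cells given next. SPON1 stood at 541 and 386 CPM in cluster 1 but at 16.3 and 26.0 CPM in cluster 4, below its level in the basal keratinocyte-like cells given below. NT5E stood at 50.5 CPM (39.7 to 63.2) in fresh and 57.4 CPM (47.8 to 68.2) in cryopreserved CD163/CD209 myeloid-like cells, that is, cells with markers of dermal macrophages. It was carried by 28 fresh and 48 cryopreserved of these cells, and the thinned shares were 8.82 and 8.68%. Within this class, NT5E was found in cluster 7, with CD209 and C1QA among its leading genes (56.3 and 67.7 CPM), whereas cluster 20, led by MARCO, had 0 NT5E UMIs in 15 fresh and 44 cryopreserved cells, with floors (3 UMIs) of 19.5 and 8.54 CPM. In keratinocyte-like cells NT5E stood at 0.388 and 1.03 CPM.

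SPON1 stood at 47.3 CPM (40.2 to 55.3) in fresh and 39.8 CPM (34.4 to 45.7) in cryopreserved basal keratinocyte-like cells and at 21.2 and 10.8 CPM in differentiated keratinocyte-like cells. It was highest in cluster 9, with PTHLH and SOX9 among its leading genes (61.6 and 55.3 CPM), then in cluster 10, with KRT15 (48.9 and 36.1 CPM). Of the 3 clusters with this name, cluster 10 had 1 basal marker among its 10 leading genes, while cluster 9 had 0 and 1 marker of another list (SOX9, of the chondrocyte or tendon list) and cluster 19 had 0 and 2, so the name rests on the marker scores and no comparison of the class between libraries is made. Among differentiated keratinocyte-like cells, cluster 2 (198 fresh and 381 cryopreserved cells) had 0 differentiated markers among its 10 leading genes. It scored 2.30 for differentiated and 1.97 for basal markers, and the difference in SPON1 between these classes was not tested. In the same keratinocyte-like cells CPZ, the member with most UMIs in collagen-rich cells, stood at 0.906 and 2.54 CPM. CTHRC1 stood at 16.1 CPM (8.55 to 27.5) in fresh and 10.0 CPM (3.68 to 21.8) in cryopreserved lymphatic-like cells, from 13 and 6 UMIs. Smooth muscle or pericyte-like cells, with any at or above the cut, held 0.830% of the 1445 fresh and 0.734% of the 1908 cryopreserved CTHRC1 UMIs. Cells at or above the collagen cut within other lineages carried a large part of 2 values for CPZ. In fresh dendritic-like cells CPZ was 27.6 CPM with them, 43 of 45 UMIs coming from a single cell, and 1.24 CPM without. In cryopreserved endothelial-like cells it was 27.8 CPM with them and 4.92 CPM without.

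Between the libraries, the genes moved by less than 2-fold and in both directions. In collagen-rich cells, the ratio of CPM, cryopreserved over fresh, was 1.30 (1.24 to 1.36) for MYOC, 1.32 (1.23 to 1.42) for TMEFF2 and 1.19 (1.11 to 1.28) for CTHRC1. It was 1.06 (1.03 to 1.09) for CPZ, 0.878 (0.810 to 0.952) for NT5E and 0.671 (0.635 to 0.708) for SPON1. Of the 6, 0 reached 2-fold, beside 0.727% of 8526 genes, and 3 reached 1.25-fold either way, beside 29.7%. SPON1 moved more than 93.0% of those genes on the log2 scale and MYOC more than 77.2%. The collagens of the rule had ratios of 1.10 (COL1A1), 0.969 (COL1A2) and 1.01 (COL3A1). With 1 library per condition, these ratios carry no estimate of the spread between preparations.

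The makeup of the collagen-rich cells differed between libraries alongside these ratios. Cluster 0 gave 164 of the 914 fresh and 305 of the 1347 cryopreserved collagen-rich cells. In the fresh library 47.3% of cluster 0 lay below the collagen cut, and in the cryopreserved library 29.6%. When the libraries were clustered without integration, a separate cluster held 69 fresh cells and 1 cryopreserved cell. It had 0 collagen-rich cells, a median collagen share of 0.117% and a fibroblast marker score of -1.04. FGF10 and KCNK13 were among its leading genes, as in cluster 0. Its part in the values over all cells of cluster 0 was not tested. Within the collagen-rich cells of cluster 0, the ratio was 1.04 (0.991 to 1.09) for MYOC and 0.956 (0.871 to 1.05) for TMEFF2, and over all cells of cluster 0, with those below the cut, it was 1.35 (1.29 to 1.41) and 0.826 (0.768 to 0.887). For SPON1, the ratio was 0.778 (0.726 to 0.833) in cluster 1 and 0.699 (0.561 to 0.871) in cluster 18, but 0.966 (0.831 to 1.12) in cluster 5, 1.36 (1.09 to 1.70) in cluster 0 and 1.56 (1.10 to 2.24) in cluster 4. CTHRC1 stood at 1.32 (1.21 to 1.44) in cluster 4, where its level was highest, and 0.961 (0.836 to 1.10) in cluster 1. With the barcodes above the maxima included, the log2 ratio was 0.88 for MYOC and 0.75 for TMEFF2, and it turned to -0.11 for CPZ and -0.03 for CTHRC1. Without cells carrying 5 or more marker UMIs of another lineage (368 fresh and 731 cryopreserved cells left), it was 0.06 for MYOC and 0.01 for TMEFF2, and turned to 0.18 for NT5E.

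**Figure D5:**
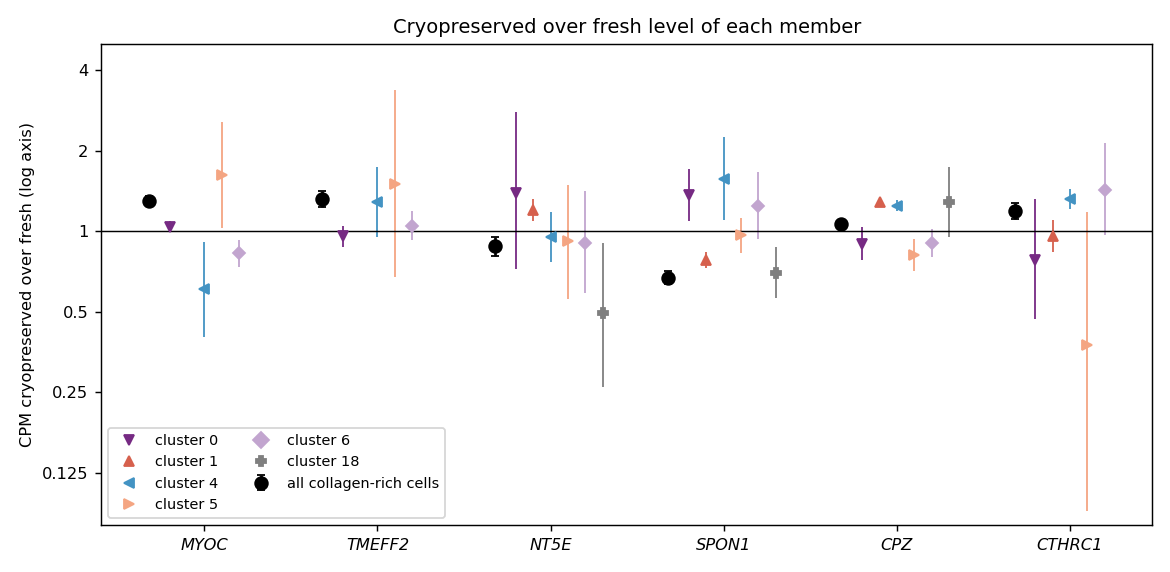
Ratio of CPM, cryopreserved over fresh (log axis), of each member in all collagen-rich cells (black circles) and within the collagen-rich cells of each fibroblast-like cluster and cluster 18 (coloured symbols, shown where both libraries had enough UMIs), with exact 95% intervals for counting error. MYOC lies at 1.30 over all cells and 1.04 within cluster 0, and SPON1 at 0.671 over all cells and from 0.699 to 1.56 within clusters.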

How the data were processed

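Single-cell RNA sequencing was analysed from 1 fresh and 1 cryopreserved pig skin library. The deposited values are whole-number UMI counts per gene and barcode, which the authors made with Cell Ranger 4.0.0 and STAR 2.5.1b (submitters' processing notes) on Sscrofa11.1. Cells over 4500 genes, 30000 UMIs or 10% mitochondrial UMIs (13 genes), the maxima of the study, were left out. Total counts over all barcodes were 53271738 (4379 fresh barcodes) and 42217632 (4860 cryopreserved barcodes). The 2775 fresh and 4223 cryopreserved cells kept held 32274985 and 36687009 of them. The paper describes removal of doublets by scatter gates in fluorescence-activated sorting, with magnetic sorting as an alternative. It also set its gene and UMI maxima against doublets. No caller was run here, so doublets may remain among the cells kept. Levels are summed UMIs scaled to 1000000 (CPM). Intervals are exact (95%, Poisson or binomial), and floors are 3 counts. Cells were integrated and clustered with Seurat 5.3.0 in R 4.3.3 (2000 features without the 6 genes, 30 dimensions, resolution 0.8), and clusters were named from at least 3 markers. Other steps used numpy 2.4.6, scipy 1.17.1 and pandas 2.3.3, and TMM factors came from edgeR 4.0.16 as an alternative. The scripts were tested on simulated data. Named genes were the 3 most like each member and list genes called 2-fold in both libraries. The members and lists were chosen with earlier results of these data known. A gene of the matrix list is not reported here by name.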

Additional observations from a re-analysis of the deposited data

Results flagged for a closer look

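Within the collagen-rich cells of single clusters, the cryopreserved over fresh ratio of 4 genes lay on different sides of 1, with intervals that left out 1. The differences between clusters were not tested. For MYOC the ratio was 0.608 in cluster 4, 0.825 in cluster 6 and 1.62 in cluster 5. For NT5E it was 1.20 in cluster 1 and 0.493 in cluster 18. For SPON1 it was 0.778 in cluster 1 and 0.699 in cluster 18, but 1.36 in cluster 0 and 1.56 in cluster 4. For CPZ it was 1.29 in cluster 1 and 1.25 in cluster 4, but 0.815 in cluster 5. SPON1 with CPZ was the pair on different sides of expectation in the libraries, at 0.969 (fresh) and 1.04 (cryopreserved), and this difference was not tested.

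Collagen-rich barcodes over a maximum of the study were outside every comparison and also held the 6 genes. They numbered 426 in the fresh library, with a median of 27122 UMIs and 2.85% mitochondrial UMIs, and 167 in the cryopreserved library, with a median of 5818 UMIs and 10.9%. In the fresh library MYOC stood at 49.3 CPM, TMEFF2 at 43.3, NT5E at 91.6, SPON1 at 113, CPZ at 983 and CTHRC1 at 146 CPM, above a floor of 0.298 CPM. In the cryopreserved library MYOC stood at 136 CPM, TMEFF2 at 94.99, NT5E at 63.9, SPON1 at 123, CPZ at 664 and CTHRC1 at 90.04 CPM, above a floor of 1.35 CPM.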

How the results depend on the processing

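No paired analysis was possible because there is 1 library per condition, and no library could be left out. Values are log2 ratios, cryopreserved over fresh, and the cause of each shift was not tested. For MYOC the ratio was 0.46 with a 1% collagen cut, 0.54 with a 5% cut, 0.88 with all barcodes, 0.065 without cells holding 5 marker UMIs of another lineage and 0.54 over all cells of the 6 clusters with the highest fibroblast marker scores. For TMEFF2 it was 0.26 with the 1% cut, 0.75 with all barcodes, 0.012 without the marker-bearing cells and 0.10 over all cells of those clusters. NT5E turned to 0.18 without the marker-bearing cells, and SPON1 was -0.26 with all barcodes. CPZ turned to -0.11 with all barcodes and was 0.43 without the marker-bearing cells and 0.19 over all cells of those clusters. CTHRC1 turned to -0.027 with all barcodes and was 0.36 over all cells of those clusters. The alternatives over those clusters and within clusters and the lineages below the cut were chosen after seeing the data. Of the main values under an alternative, 74 kept their direction and stayed within the counting interval (within 1.5 times for counts of genes), 13 moved beyond it and 3 turned. All main values that moved or turned were cryopreserved over fresh ratios. Of the further levels and pairs, 110 stayed within, 75 moved and 1 turned. Among these, 28 levels in collagen-rich cells moved and 8 stayed, while 47 pair ratios moved and 102 stayed. Thinned to 1000 UMIs, NT5E with CTHRC1 in fresh cells fell to 0.658 times expectation. Among list genes, 36 were called beside NT5E with a minimum of 2 UMIs a cell, 24 of them shared with the 25 called otherwise. Depth limits joint detection: a gene missed at 3000 UMIs was not shown to be absent.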
